A study of Homo sapiens with 18 samples.

Results

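KNS-42 cells, a glioma line made to express the Cas9 nuclease, were compared with and without a DDX3Y transgene while the endogenous DDX3X gene was targeted in both. The 6 libraries, out of 18 in the series, were chosen by their labels alone. In the 3 DDX3Yoe libraries the cells overexpressed a codon-optimised DDX3Y and had received guide RNA 395, directed at endogenous DDX3X. In the 3 parental libraries the cells carried no DDX3 transgene and had received the same guide. Both lines were grown in puromycin, the guide was delivered by lentivirus, and total RNA was taken on day 7. The other 12 libraries were DDX3Yoe and parental cells with a control guide against the AAVS1 site, and cells that overexpressed a codon-optimised DDX3X (DDX3Xoe) with either guide, with 3 libraries in each group. The 2 replicate 1 libraries labelled DDX3Xoe run against their guide labels in their DDX3X reads, and they enter here through the estimate of spread, the filter on low values and the mean of all 18 libraries that list levels are set against. The sources used here do not name the promoter of the transgene or say whether a line is 1 clone. The labels do not tie replicates to separate cultures. All p-values therefore measure only how these libraries vary, and that variation may be technical.

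DDX3X and DDX3Y are the X-linked and Y-linked copies of a DEAD-box RNA helicase, an enzyme that opens RNA structure and takes part in the start of translation. Double-stranded RNA or DNA in the cytosol is detected by sensors that switch on interferon genes. Secreted interferon then acts through JAK kinases and STAT and IRF factors, which raise antiviral effectors, antigen presentation genes and chemokines. The guide comparison in these cells asks how cells with a DDX3Y transgene differ from cells without one when both receive the guide against DDX3X.

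Gene reads per library ran between 7.81 M and 12.03 M in the 6 libraries (M, 1e6) and between 5.67 M and 13.2 M in all 18. Mitochondrial transcripts took 14.2, 10.5 and 10.8% of reads in the DDX3Yoe libraries, against 9.11, 11.1 and 7.78% in the parental libraries. DDX3X, the gene targeted in both groups, had 878, 739 and 653 normalised reads in the DDX3Yoe libraries, against 861, 844 and 953 in the parental libraries, and the groups overlapped (log2 fold change -0.24, limma adjusted p 0.764). Normalised reads are the deposited values, reads divided by 1 size factor per library. With the control guide DDX3X averaged 1458 ± 90.5 normalised reads in DDX3Yoe cells and 1811 ± 100.2 in parental cells (SD, n = 3 each). DDX3Y had 0 reads in all 18 libraries, DDX3Yoe included, which allows at most 3 reads a library. Reads from the 3′ end of a native transcript check neither a codon-optimised transgene nor a guide's target site, so the label DDX3Yoe cannot be checked this way. The Y-linked genes of X-Y pairs, 11 in all, had no read either. The glioma and neural progenitor markers SOX2 and VIM were abundant, SOX2 at 23591 ± 6059 normalised reads in DDX3Yoe and 12602 ± 3475 in parental libraries, and VIM at 24665 ± 8881 and 20519 ± 4329 in the same order (SD, n = 3 each). Of the 37 listed neural and glioma progenitor genes, 26 were measured and 7 had no read in the 6 libraries. Markers of other cells were low, with 4 of 15 haematopoietic, 3 of 10 endothelial and 0 of 10 epithelial markers without a read in the 6 libraries. The summed 15 haematopoietic markers held 40.7 to 70.8 normalised reads in DDX3Yoe libraries and 60.01 to 187 in parental libraries, with PTPRC, CD3E, CSF1R and TYROBP each below 4. The 10 endothelial markers summed to 16.1 to 39.7 in DDX3Yoe and 24.0 to 44.8 in parental libraries. CDH5 was at 0 to 2.91 in DDX3Yoe and at 0 in all 3 parental libraries. PECAM1 was at 0 to 3.26 in DDX3Yoe and 2.09 to 28.1 in parental libraries, and VWF at 7.01 to 18.4 and 0.88 to 9.84 in the same order. The 10 epithelial markers summed to 223.9 to 332 in DDX3Yoe and 194 to 288 in parental libraries, with EPCAM and KRT5 below 5 and CDH1 at 2.91 to 4.34 in DDX3Yoe and 3.94 to 17.7 in parental libraries. The part of mitochondrial shares and of these markers in the results was not tested.

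With guide 395, DDX3Yoe cells had more RNA than parental cells for the neural progenitor genes NES and MIAT, the smooth-muscle actin ACTG2 and the collagen COL1A1. They had less RNA for the class I molecule HLA-E, the non-coding RNA HCP5 of the class I region, the prostaglandin enzyme PTGS2, the kinase JAK2 and the nucleic acid sensor ZBP1. Of 15228 genes tested, 31 passed a Benjamini-Hochberg adjusted p of 0.05 in limma (0.204%). Of these, 11 were higher in DDX3Yoe cells (0.0722%) and 20 were lower (0.131%), and 24 code for proteins. In each of the 31 the 3 DDX3Yoe libraries lay entirely on 1 side of the 3 parental libraries, and each differed by at least 1 on the log2 scale. Non-overlap itself was common, with 1638 genes entirely higher (10.8%) and 2139 entirely lower (14%). At an unadjusted p under 0.05 there were 2020 genes (13.3%), of which 982 were higher (6.45%) and 1038 were lower (6.82%). A further 42 genes lay at an adjusted p between 0.05 and 0.06, just outside the threshold.

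The number of calls rested on every library. It was 2, 14 and 3 without DDX3Yoe replicate 1, 2 and 3, and 2, 18 and 7 without parental replicate 1, 2 and 3. NES and DGKQ passed in each of these 6 fits, and COL1A1 in 4 of them. Of the 31 genes, 13 passed in none of these fits. HLA-E and JAK2 were among the 13, as was ZBP1, which could be fitted in 3. HCP5, MIAT and ACTG2 passed in 1 of the 6, and PTGS2 in 2. The direction of each of the 31 genes was the same in every one of the 6 fits and 15 other settings in which it could be fitted. Over those 15 settings the number of calls lay between 16 and 786. HLA-E, HCP5 and ZBP1 each passed in 10 of the 15. The edgeR quasi-likelihood test on recovered reads called 16 genes, all among the 31, and DESeq2 called 410, of which 30 were among the 31. Median-centring gave 12 higher and 9 lower genes, and quantile normalisation gave 49 higher and 56 lower, beside 11 and 20 with the deposited scaling.

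**Figure D1:**
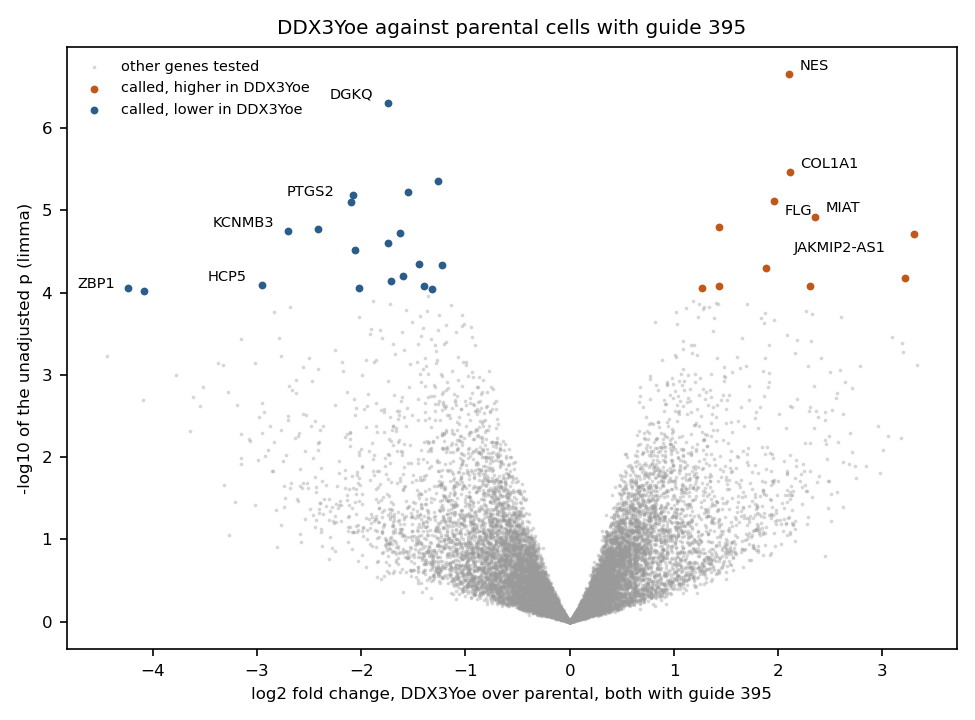
Log2 fold change of DDX3Yoe over parental cells, both with guide 395 (horizontal axis), against the -log10 of the unadjusted limma p (vertical axis), 1 point per gene tested. The 11 orange points passed the adjusted threshold and were higher in DDX3Yoe, and the 20 blue points passed and were lower.

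NES, which encodes nestin, an intermediate filament protein of neural stem and progenitor cells, had the smallest p of the comparison. It lies on chromosome 1, 156668763 to 156677397 on the minus strand of GRCh38. The gene had 1184, 698 and 847 normalised reads in the DDX3Yoe libraries, against 151, 214 and 269 in the parental libraries. The lowest DDX3Yoe library thus lay well above the highest parental library, and the group means differed 4.30-fold (log2 fold change 2.10, SE 0.26, limma adjusted p 0.00338). MIAT, a long non-coding RNA expressed in neural progenitors and neurons, had 1279, 1621 and 1835 normalised reads in DDX3Yoe libraries, against 347, 467 and 175 in parental libraries (log2 fold change 2.35, limma adjusted p 0.0202). DLX6-AS1, a non-coding RNA from the DLX5 and DLX6 locus of forebrain interneuron progenitors, had 2677, 1877 and 2972 in DDX3Yoe and 869, 905 and 962 in parental libraries (log2 fold change 1.43, limma adjusted p 0.0208). It overlaps DLX6 on the other strand, and no source used here gives the strand setting of the counting. DLX6 itself averaged 717 ± 172 normalised reads in DDX3Yoe and 404 ± 128 in parental libraries (SD, n = 3 each, log2 fold change 0.85, limma adjusted p 0.246). MIAT likewise overlaps MIATNB, whose log2 fold change was 1.03 (limma adjusted p 0.355).

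In the list of neural and glioma progenitor genes, 26 of 37 members were measured, and 2 of them passed the test, NES and MIAT, both higher. At an unadjusted p under 0.05, 10 were higher and none lower, 19 lay above 0 and 7 below, and the median log2 fold change was 0.36, which was 0.22 without DDX3Yoe replicate 1 and between 0.30 and 0.50 without each other library. Over all genes tested the median was -0.02, with 7420 above 0 and 7808 below. Of all genes, 6.45% were higher and 6.82% lower at an unadjusted limma p under 0.05. PLPPR4, a membrane protein of growing axons, had 252, 303 and 270.0 normalised reads in DDX3Yoe libraries, against 40.4, 93.5 and 56.3 in parental libraries, without overlap, and missed the threshold (log2 fold change 2.18, limma adjusted p 0.0663). SUSD4, a complement regulator of the brain, differed by 1.48 on the log2 scale (limma adjusted p 0.101). SOX2, the transcription factor that keeps neural progenitors undifferentiated, had one of 0.91 (limma adjusted p 0.251), and the 3 DDX3Yoe libraries lay above the 3 parental ones. The median level of the list, relative to the mean of all 18 libraries, was 0.24, 0.06 and -0.05 on the log2 scale in the DDX3Yoe libraries, against -0.27, -0.33 and -0.53 in the parental libraries, so the groups did not overlap. The level of all genes tested did not overlap either, at 0.016 to 0.028 in DDX3Yoe and 0.032 to 0.054 in parental libraries. In bulk RNA, fewer cells of a type and less RNA per cell cannot be told apart.

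Below the threshold, and named to complete the count of higher genes, were TENM2, a teneurin of neuronal synapses, LMO3, a LIM-domain transcriptional cofactor, AASS, a lysine-degrading enzyme, and BAALC, a gene of neural tissue. Each lay at a limma adjusted p of 0.0520. TENM2 had 880.1, 570.1 and 927 normalised reads in DDX3Yoe libraries, against 216, 299 and 383 in parental libraries. LMO3 had 681, 885 and 572 in DDX3Yoe and 259, 319.7 and 315 in parental libraries. In none of the 4 did the groups overlap.

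**Figure D2:**
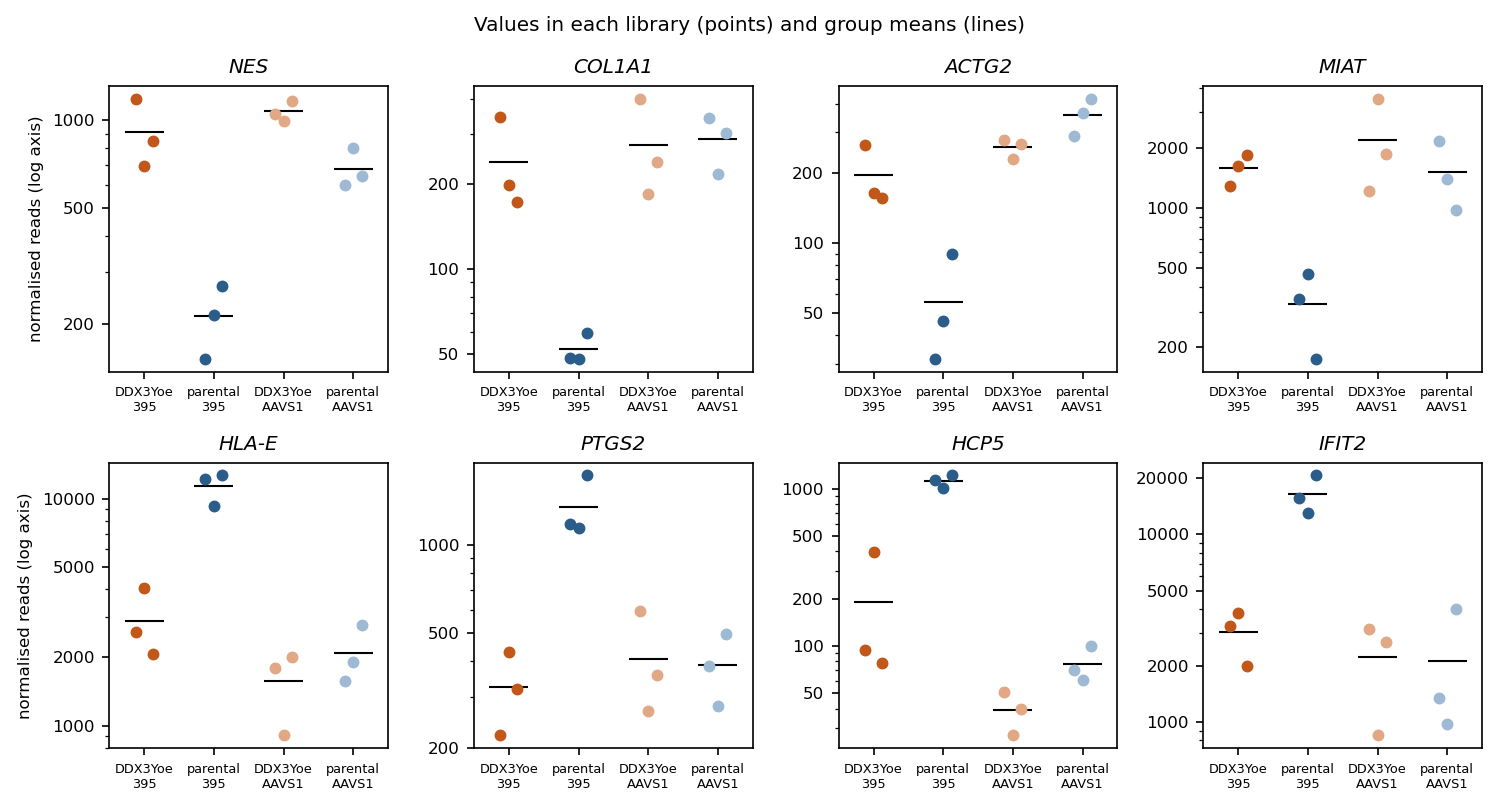
Normalised reads (log axis) of 8 genes in each library of 4 groups, with points for libraries and lines for group means. For NES, COL1A1, ACTG2 and MIAT the 3 parental libraries with guide 395 lie below all others shown, and for HLA-E, PTGS2, HCP5 and IFIT2 they lie above all others shown.

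COL1A1, the main chain of type I collagen on chromosome 17, 50183289 to 50201632 on the minus strand, had 344, 198 and 173 normalised reads in the DDX3Yoe libraries, against 48.4, 48.2 and 59.4 in the parental libraries. All DDX3Yoe values were above all parental values (log2 fold change 2.11, SE 0.32, limma adjusted p 0.0150). ACTG2, an actin of smooth muscle, had 266, 165 and 157 in DDX3Yoe and 31.6, 46.2 and 89.7 in parental libraries, again apart (log2 fold change 1.88, SE 0.35, limma adjusted p 0.0397). ACTG2 is close in sequence to other actin genes, so its reads may be shared with them. ACTA2, another smooth-muscle actin, had 632, 397 and 485 in DDX3Yoe and 180.2, 243 and 188 in parental libraries, and just missed the threshold (log2 fold change 1.29, limma adjusted p 0.0520).

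Of the 29 actin and contractile genes listed, 27 were measured and ACTG2 alone passed. At an unadjusted p under 0.05, 9 were higher and none lower, 24 lay above 0, and the median log2 fold change was 0.49. Over all genes tested, 6.45% were higher at that limma p. DESeq2 called 5 members, all higher, and edgeR none, beside 156 of all 15228 genes higher in DESeq2. TMOD1, which caps the slow-growing ends of actin filaments, had 182, 239 and 286 normalised reads in DDX3Yoe libraries, against 113, 78.7 and 96.0 in parental libraries (log2 fold change 1.28, limma adjusted p 0.0520). VCL, or vinculin, which links adhesions to actin, had 3745, 2589 and 2740.1 in DDX3Yoe and 1322, 1295 and 1916 in parental libraries (log2 fold change 1.01, limma adjusted p 0.0806). Neither gene's groups overlapped. TAGLN, or transgelin, had 531, 394 and 674 in DDX3Yoe libraries, against 209, 242 and 414 in parental libraries, and parental replicate 3 lay above the lowest DDX3Yoe library (log2 fold change 0.91, limma adjusted p 0.253). The level of the list was 0.18, -0.18 and -0.04 in DDX3Yoe libraries and -0.74, -0.73 and -0.26 in parental libraries on the log2 scale.

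Matrix genes lay on both sides of 0. Of 33 measured members, 16 lay above 0 and 17 below, with a median of -0.03 that lay between -0.05 and 0.21 when each library was left out. COL11A1, a fibrillar collagen, had 11939, 7686 and 9111 normalised reads in DDX3Yoe libraries, against 2566, 5029 and 5313 in parental libraries (log2 fold change 1.20, limma adjusted p 0.0928). FN1, or fibronectin, had 223, 255 and 351 in DDX3Yoe and 608, 398 and 510.0 in parental libraries (log2 fold change -0.87, limma adjusted p 0.105). COL1A2, which pairs with COL1A1 in the type I collagen fibre, averaged 8.99 ± 1.41 in DDX3Yoe and 44.1 ± 30.0 in parental libraries (SD, n = 3 each, log2 fold change -1.91, limma adjusted p 0.269). SFRP2, a secreted Wnt modulator outside the list, had 528, 475 and 198 normalised reads in DDX3Yoe libraries, against 100.2, 127 and 85.5 in parental libraries (log2 fold change 1.83, limma adjusted p 0.124). Of 24 genes that respond to TGF-beta or YAP, none passed in limma, edgeR or DESeq2, 1 was lower at an unadjusted p under 0.05, and the median was -0.19.

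JAK2, one of the kinases that carry cytokine receptor signals to STAT factors, was lower in DDX3Yoe cells. It had 142, 227 and 209.7 normalised reads in DDX3Yoe libraries, against 739, 602 and 544 in parental libraries, with no overlap (log2 fold change -1.71, SE 0.33, limma adjusted p 0.0459). ZBP1, a sensor of Z-form nucleic acid that can start necroptosis, had 3.88, 9.77 and 2.10 in DDX3Yoe and 147, 81.7 and 88.7 in parental libraries. These rest on 16 reads over the 3 DDX3Yoe libraries and 335 over the 3 parental libraries (log2 fold change -4.24, SE 0.84, limma adjusted p 0.0459). ZBP1 entered the test only through the 3 parental libraries, where it was high. Among 10 measured ligands, receptors and JAK kinases of the interferon pathway, the kinase JAK2 was the 1 that passed. In this list 3 were lower at an unadjusted p under 0.05 and none higher, and the median was -0.42. The 3 became 1 without parental replicate 1 or 3, and the median was -0.25 without DDX3Yoe replicate 1, -0.17 without parental replicate 1 and -0.22 without parental replicate 3. IFNL1, a type III interferon, had 4.85, 1.09 and 3.51 normalised reads in DDX3Yoe libraries, against 81.8, 9.84 and 41.7 in parental libraries (log2 fold change -3.15, limma adjusted p 0.212).

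Among 19 measured nucleic acid sensors and adaptors, ZBP1 passed, 15 lay below 0, 2 were lower at an unadjusted p under 0.05, and the median log2 fold change was -0.58. The median was -0.24 without DDX3Yoe replicate 3 and -0.38 without parental replicate 1. The 2 lower members became 0 without parental replicate 1 or 3, and 1 without DDX3Yoe replicate 1, DDX3Yoe replicate 3 or parental replicate 2. OASL, an interferon-induced partner of the RNA sensor RIG-I, had 546, 623 and 531 in DDX3Yoe and 2532, 1620.3 and 2119 in parental libraries, without overlap (log2 fold change -1.86, limma adjusted p 0.286). None of 12 measured STAT and IRF factors passed in limma, and 3 had an unadjusted p under 0.05, 1 higher and 2 lower, the 2 becoming 1 without parental replicate 2. DESeq2 called 1 and edgeR none. IRF7, which amplifies interferon transcription, had 1008, 1379 and 1076 normalised reads in DDX3Yoe libraries, against 4289, 2802 and 3742 in parental libraries (log2 fold change -1.64, limma adjusted p 0.132). IRF9, the DNA-binding part of the factor that answers type I interferon, lay the other way, with 223, 298 and 292 in DDX3Yoe and 69.5, 221 and 86.6 in parental libraries (log2 fold change 1.28, limma adjusted p 0.199).

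Most antiviral effector genes lay lower in DDX3Yoe cells, and none passed the adjusted threshold in limma. Of 57 measured of 60 listed, 49 lay below 0 and 8 above, the median log2 fold change was -0.75, and 17 were lower and none higher at an unadjusted p under 0.05. In 33 members every DDX3Yoe library lay below every parental library, which held for 14% of all genes tested. In none did every one lie above, against 10.8% of all genes tested. The level of the list was 0.44, 0.54 and -0.004 on the log2 scale in the DDX3Yoe libraries, against 1.26, 0.99 and 1.29 in the parental libraries, and these did not overlap. Leaving out each of the 6 libraries in turn gave a median between -0.96 and -0.63, and between 9 and 17 lower members at an unadjusted p under 0.05, with the fewest without DDX3Yoe replicate 3. With all libraries, 6.82% of all genes tested were lower at that limma p. DESeq2 called 6 members, all lower, and edgeR called none, beside 254 of all 15228 genes lower in DESeq2.

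Within that list, CD274, which encodes the checkpoint ligand PD-L1, had 17.4, 15.2 and 11.9 normalised reads in DDX3Yoe libraries, against 178, 65.9 and 116 in parental libraries. Its lowest parental value was more than any DDX3Yoe value, and it just missed the threshold (log2 fold change -2.83, limma adjusted p 0.0520). RTP4, a receptor chaperone induced by interferon, had 23.3, 52.1 and 33.7 in DDX3Yoe and 639, 236 and 293 in parental libraries (log2 fold change -3.32, limma adjusted p 0.0854). IFIT2, an RNA-binding antiviral protein, had 3259, 3817 and 2001 in DDX3Yoe and 15661, 13057 and 20616 in parental libraries (log2 fold change -2.47, limma adjusted p 0.101). For the exonuclease gene ISG20 the values were 125, 209.6 and 166 in DDX3Yoe and 1585, 761 and 1684 in parental libraries (log2 fold change -2.95, limma adjusted p 0.122). These 4 showed no overlap.

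IFIT1, a sensor of uncapped RNA, had 8099, 7889.9 and 3667 normalised reads in DDX3Yoe libraries, against 30069.6, 15945 and 14098 in parental libraries (log2 fold change -1.62, limma adjusted p 0.200). In IFI27, DDX3Yoe replicate 2 stood nearer to the parental libraries than replicates 1 and 3, at 458, 1942 and 458 in DDX3Yoe and 4055, 2976 and 2336 in parental libraries (log2 fold change -2.04, limma adjusted p 0.255). BST2, or tetherin, overlapped between the groups, with DDX3Yoe replicate 2 above parental replicate 2, at 1055, 3732 and 1324 in DDX3Yoe libraries, against 5239.6, 3538 and 4438 in parental libraries (log2 fold change -1.33, limma adjusted p 0.509). ISG15, the ubiquitin-like modifier, had 4044, 4920.0 and 2579.5 in DDX3Yoe and 8131, 5489 and 7161 in parental libraries (log2 fold change -0.88, limma adjusted p 0.611).

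Interferon-stimulated response elements, where IRF and STAT factors bind, were searched for as GAAA, any 2 bases and GAAA, on either strand, in any overlap, in RefSeq promoters, 250 bases before to 50 after each start, on GRCh38.p14. Of the measured antiviral effector genes, 47 had a promoter in the table and 33 of those (70.2%) held the letters, as did 10 of 16 antigen presentation genes (62.5%). The share was 3.95% over 10985 tested genes with a promoter and 4.38% over all 27305 gene symbols with a promoter. Among genes that passed the test, it was 1 of 13 lower genes (KCNMB3) and 1 of 9 higher genes (MIR100HG). The antiviral effector list was made of known interferon-stimulated genes, so its share is not a result of this comparison. The following windows of 60 bases are 5 examples chosen after the values were seen, to show how the letters stand in promoters of genes described here, and capitals mark the matches. The 5 printed genes all lay lower in DDX3Yoe cells. IFI27, BST2 and ISG15 also hold matches, as does ACTA2, which lay higher in DDX3Yoe cells, and their windows are not printed.
CD274, chr9:5450309-5450368, plus strand: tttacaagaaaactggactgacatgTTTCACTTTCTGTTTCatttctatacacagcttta
RTP4, chr3:187368318-187368377, plus strand: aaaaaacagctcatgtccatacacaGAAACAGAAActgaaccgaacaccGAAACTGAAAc
ISG20, chr15:88638922-88638981, plus strand: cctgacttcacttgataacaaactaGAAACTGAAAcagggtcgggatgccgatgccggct
IFIT1, chr10:89392482-89392541, plus strand: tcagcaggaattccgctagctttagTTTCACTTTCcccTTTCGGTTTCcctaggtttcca
TAP1, chr6:32853804-32853863, minus strand: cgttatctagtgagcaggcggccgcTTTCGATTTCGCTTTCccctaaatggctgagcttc
In CD274 and TAP1 the 2 matches overlap into 1 run, while in RTP4 and IFIT1 they stand apart and ISG20 has 1. A match is a description of letters and not of binding in these cells.

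HLA-E, a class I molecule that presents leader peptides to natural killer cells, was lower in DDX3Yoe cells. It had 2576, 4060.0 and 2065 normalised reads in DDX3Yoe libraries, against 12278, 9357 and 12695 in parental libraries, so the highest DDX3Yoe library lay far below the lowest parental one (log2 fold change -2.03, SE 0.40, limma adjusted p 0.0459). HCP5, a non-coding transcript of the class I region on chromosome 6, 31400702 to 31477506 on the plus strand, had 95.0, 396 and 78.6 in DDX3Yoe and 1144, 1010.3 and 1215 in parental libraries (log2 fold change -2.95, SE 0.58, limma adjusted p 0.0459). DDX3Yoe replicate 2 was the highest of its group in both. Class I genes resemble each other and HCP5 overlaps MICA, so single values may include shared reads.

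Both were among 20 measured genes of class I presentation, of which 19 lay below 0, 11 were lower and none higher at an unadjusted p under 0.05, and the median log2 fold change was -1.04. Over all genes tested, 6.82% were lower at that limma p. DESeq2 called 8 members, all lower, and edgeR none, beside 254 of all 15228 genes lower in DESeq2. The level of the list was -0.03, 0.54 and -0.13 on the log2 scale in DDX3Yoe libraries, against 1.69, 1.05 and 1.09 in parental libraries. TAP1, which pumps peptides into the endoplasmic reticulum, had 1209, 1818 and 1098 normalised reads in DDX3Yoe libraries, against 6142, 3178 and 4233 in parental libraries (log2 fold change -1.70, limma adjusted p 0.0674). HLA-B had 5274, 14006 and 4651 in DDX3Yoe and 38473, 25391 and 32598 in parental libraries (log2 fold change -2.18, limma adjusted p 0.0914). Neither overlapped between groups, and both were highest in replicate 2 among the DDX3Yoe libraries.

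PTGS2, the inducible cyclooxygenase that makes prostaglandins in inflammation, was lower in DDX3Yoe cells, with 221, 430.0 and 318 normalised reads in DDX3Yoe libraries, against 1184, 1149 and 1739.7 in parental libraries. The groups were far apart (log2 fold change -2.09, SE 0.34, limma adjusted p 0.0150). It was the 1 that passed of 26 measured NF-kB, chemokine and cytokine genes. Of these, 25 lay below 0, 11 were lower and none higher at an unadjusted p under 0.05, and the median log2 fold change was -1.15. With all libraries this was the lowest of the lists with at least 10 measured members. When each library was left out it lay between -1.37 and -0.88. The class I presentation list then had the lower median without DDX3Yoe replicate 1 or 2 or parental replicate 1. Without parental replicate 3 these 2 medians were nearly equal (-1.127 and -1.129 for class I). The number at an unadjusted p under 0.05 was 7 without DDX3Yoe replicate 1 and between 8 and 14 without each other library. With all libraries, 6.82% of all genes tested were lower at that limma p. DESeq2 called 4 members and edgeR 1, all lower, beside 254 and 11 lower of all 15228 genes. CCL5, a chemokine for T cells, had 35.9, 52.1 and 27.4 normalised reads in DDX3Yoe libraries, against 386, 175 and 488 in parental libraries (log2 fold change -3.08, limma adjusted p 0.180). CXCL11, a chemokine induced by interferon, had 2.91, 11.9 and 6.31 in DDX3Yoe and 114, 64.9 and 93.9 in parental libraries (log2 fold change -3.64, limma adjusted p 0.166). Neither overlapped.

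SOD2, the mitochondrial superoxide dismutase and an NF-kB target, had 339, 629.8 and 724 normalised reads in DDX3Yoe libraries, against 6356, 1555 and 2401 in parental libraries (log2 fold change -2.42, limma adjusted p 0.0901). WTAP, part of the complex that methylates adenosines in RNA, did pass, with 486, 496 and 577 in DDX3Yoe and 1959, 981 and 1125 in parental libraries (log2 fold change -1.32, limma adjusted p 0.0459). It overlaps SOD2 on the opposite strand, both are highest in parental replicate 1, and whether they share reads was not tested.

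Complement and cell death genes lay mostly below 0 without a call in limma or edgeR, while DESeq2 called 3 complement genes and 2 apoptosis regulators, all lower. Of all 15228 genes, DESeq2 called 254 lower, and 6.82% were lower at an unadjusted limma p under 0.05. Of 12 measured complement genes, 10 lay below 0 and 5 were lower at an unadjusted p under 0.05, which was 3 without DDX3Yoe replicate 1 or parental replicate 1 or 2. Their median was -0.45, and -0.17 without parental replicate 1. With the control guide 10 of the 12 also lay below 0, with a median of -0.36. C1R, a protease of the first complement component, had 524, 1168 and 483 normalised reads in DDX3Yoe libraries, against 3437, 2395 and 1841 in parental libraries (log2 fold change -1.89, limma adjusted p 0.0520). SERPING1, its inhibitor, had 177, 489 and 103 in DDX3Yoe and 1480.5, 1144 and 1413 in parental libraries (log2 fold change -2.68, limma adjusted p 0.0520). Among 30 measured apoptosis regulators 23 lay below 0 and 7 were lower at an unadjusted p under 0.05, which was 3 without DDX3Yoe replicate 1 and 4 without parental replicate 1. MLKL, which executes necroptosis, had 76.6, 72.8 and 41.4 in DDX3Yoe libraries, against 227, 204 and 239.9 in parental libraries (log2 fold change -1.84, limma adjusted p 0.168). CASP1, the caspase of inflammasomes, had 113, 228 and 283 in DDX3Yoe and 1186, 497 and 510.0 in parental libraries (log2 fold change -1.78, limma adjusted p 0.168). APOL1, a lipoprotein component induced by inflammation, had 159, 261 and 102 in DDX3Yoe and 909.9, 519 and 911 in parental libraries (log2 fold change -2.21, limma adjusted p 0.251).

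**Figure D3:**
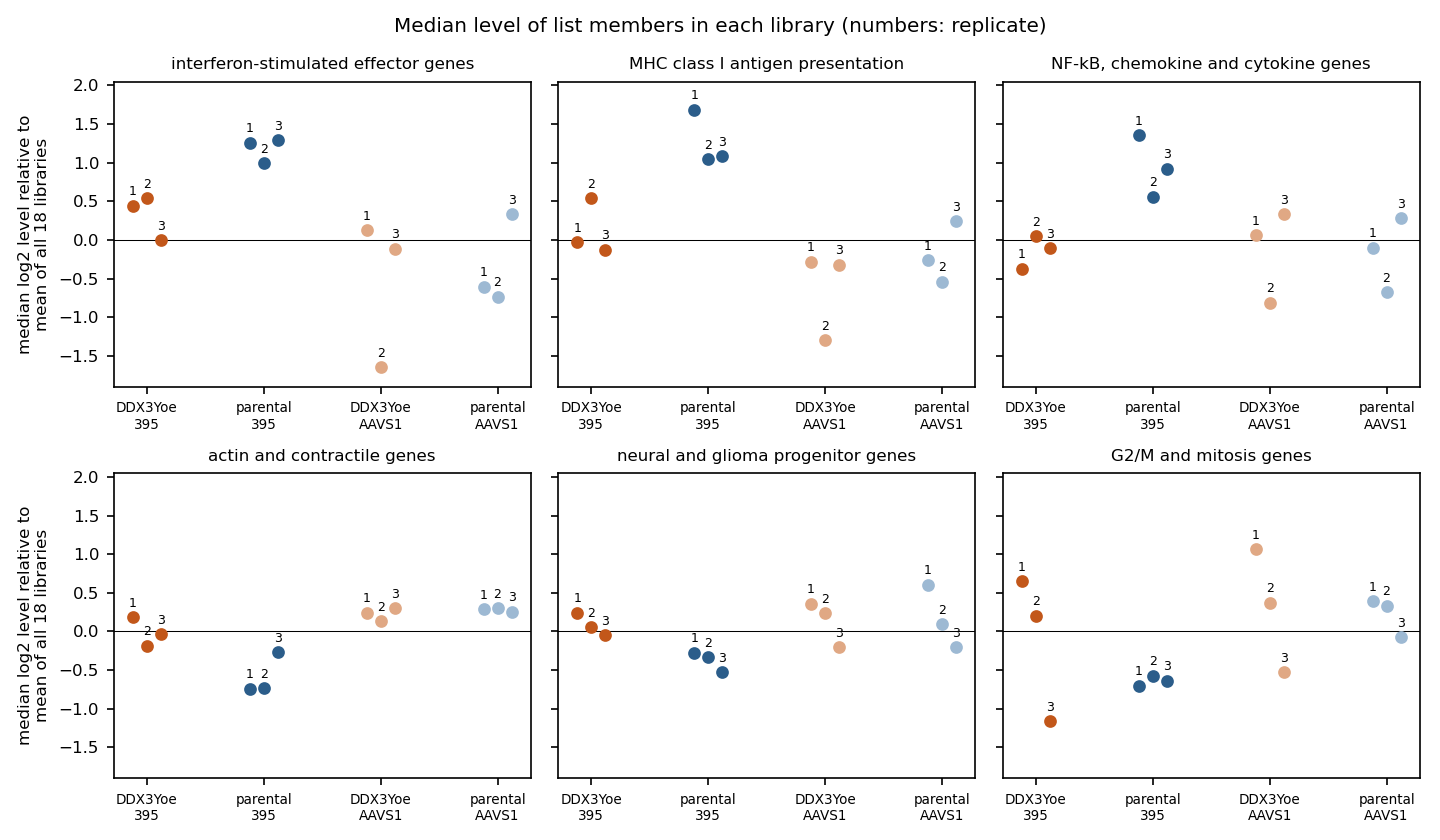
Median log2 level of the measured members of 6 gene lists in each library, relative to the mean of all 18 libraries, with the replicate number above each point. With guide 395 the DDX3Yoe and parental points do not overlap in the first 5 panels, and DDX3Yoe replicate 3 lies below all parental points in the G2/M panel.

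The other genes that passed were spread over several functions. DGKQ, a kinase that removes the lipid messenger diacylglycerol, had 194, 214 and 209 normalised reads in DDX3Yoe libraries, against 687, 584 and 821 in parental libraries, and both groups were tight (log2 fold change -1.74, SE 0.23, limma adjusted p 0.00373). BAG1, a co-chaperone that restrains apoptosis, had 1977, 1422 and 1142 in DDX3Yoe and 4627, 3988 and 5159.6 in parental libraries (log2 fold change -1.63, limma adjusted p 0.0208). MDK, or midkine, a secreted growth factor, had 607, 731 and 328 in DDX3Yoe libraries, against 1538, 1537 and 1724 in parental libraries (log2 fold change -1.60, limma adjusted p 0.0459). DVL1, which relays Wnt signals, had 181, 186 and 183 in DDX3Yoe and 438, 373 and 484 in parental libraries (log2 fold change -1.22, limma adjusted p 0.0391). TOB2, an antiproliferative adaptor of deadenylases, had 691, 539.7 and 398 in DDX3Yoe and 1179.8, 1408 and 1821 in parental libraries (log2 fold change -1.45, limma adjusted p 0.0391).

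TMEM62, a transmembrane protein gene, had 258, 215 and 198 normalised reads in DDX3Yoe libraries, against 1122, 855 and 871 in parental libraries (log2 fold change -2.08, limma adjusted p 0.0150). It overlaps CCNDBP1 on the same strand, whose log2 fold change was -0.48 (limma adjusted p 0.527). KCNMB3, a regulatory subunit of calcium-activated potassium channels, had 36.8, 26.1 and 46.3 in DDX3Yoe and 279.6, 244 and 194 in parental libraries (log2 fold change -2.70, limma adjusted p 0.0208). Its opposite-strand neighbour PIK3CA differed by 0.05 on the log2 scale (limma adjusted p 0.956). CBARP, a modulator of calcium channels, had 210.3, 211 and 191 in DDX3Yoe libraries, against 538, 442 and 907 in parental libraries (log2 fold change -1.55, limma adjusted p 0.0150), and STK11 on the other strand had one of -0.10 (limma adjusted p 0.923). Of the 31 genes, 11 overlap another measured gene in the annotation, and reads of such a pair cannot be told apart while the strand setting is unknown.

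ENTREP3, KAZALD1, TBC1D2 and C6orf47 were also lower, with log2 fold changes of -1.27, -1.74, -2.06 and -1.39 and limma adjusted p of 0.0150, 0.0251, 0.0292 and 0.0459. KAZALD1 is a secreted protein of the matrix and TBC1D2 acts on RAB7 in endosomes. The pseudogenes ZDHHC8BP and CES5AP1, which may share reads with their parent genes, completed the group. ZDHHC8BP had 156, 264 and 94.0 normalised reads in DDX3Yoe libraries, against 747, 928 and 857 in parental libraries (log2 fold change -2.41, limma adjusted p 0.0208). CES5AP1 had no read in any DDX3Yoe library, against 14.9, 18.7 and 14.6 normalised reads in parental libraries, which makes it at least 5.83-fold lower at a floor of 3 reads per library (limma adjusted p 0.0471). It entered the test only through the 3 parental libraries.

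FLG, or filaggrin, a barrier protein of skin, was higher, with 557, 784 and 705 normalised reads in DDX3Yoe libraries, against 115, 237 and 189 in parental libraries (log2 fold change 1.96, limma adjusted p 0.0150). MIR100HG, the host transcript of several microRNAs, had 1037, 1137 and 786 in DDX3Yoe and 351, 514 and 368 in parental libraries (log2 fold change 1.27, limma adjusted p 0.0459). ANAPC15, a subunit of the anaphase-promoting complex, had 274, 204 and 184 in DDX3Yoe libraries, against 92.3, 79.7 and 69.9 in parental libraries (log2 fold change 1.43, limma adjusted p 0.0459). FAM13C, CYB5R2 and JAKMIP2-AS1 had few reads in parental cells. JAKMIP2-AS1, an antisense RNA, had 35.9, 34.7 and 37.2 in DDX3Yoe and 2.64, 0.984 and 6.26 in parental libraries (log2 fold change 3.30, limma adjusted p 0.0208), and JAKMIP2 on the other strand differed by 0.73 on the log2 scale (limma adjusted p 0.404). FAM13C had 39.7, 43.4 and 37.2 in DDX3Yoe libraries, against 6.15, 4.92 and 1.04 in parental libraries (log2 fold change 3.21, limma adjusted p 0.0459). CYB5R2, a cytochrome b5 reductase, had 53.3, 26.1 and 43.5 in DDX3Yoe and 9.67, 3.94 and 9.39 in parental libraries (log2 fold change 2.30, limma adjusted p 0.0459).

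Ribosomal protein genes gave no call. Of 79 measured cytosolic ribosomal protein genes none passed in limma, edgeR or DESeq2, 66 lay above 0, 6 were higher and none lower at an unadjusted p under 0.05, and the median log2 fold change was 0.34. Over all genes tested 6.45% were higher at that limma p. The 6 became 2 without DDX3Yoe replicate 1 and 3 without parental replicate 1 or 2, and the median was 0.18 without DDX3Yoe replicate 3 and 0.22 without parental replicate 3. The level of the list overlapped between groups, at -0.17, -0.33 and 0.20 in DDX3Yoe libraries and -0.17, -0.44 and -0.59 in parental libraries. RPL39 had 1806, 1270.5 and 1042 normalised reads in DDX3Yoe libraries, against 434, 495 and 721 in parental libraries (log2 fold change 1.31, limma adjusted p 0.194). RPLP0, a stalk protein of the ribosome, had 5619, 3527 and 6958 in DDX3Yoe and 3739, 3508 and 2829 in parental libraries (log2 fold change 0.63, limma adjusted p 0.471). Ribosomal protein genes have pseudogene copies that can share their reads. Of 42 translation factors 24 lay above 0 with a median of 0.09, and of 44 DEAD-box and DEAH-box helicases 24 lay above 0 with a median of 0.08. Leaving out each library put these medians between 0.01 and 0.12 for translation factors, and between -0.009 (without parental replicate 1) and 0.11 for helicases. DHX40, a DEAH-box helicase, had 2399, 2096 and 2443 in DDX3Yoe libraries, against 1193, 1338 and 1408 in parental libraries, apart but not called (log2 fold change 0.82, limma adjusted p 0.0544).

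The values of the mitosis genes rested on single libraries. Of 47 measured, 40 lay above 0, the median log2 fold change was 0.48, and 3 were higher at an unadjusted p under 0.05, which became 19 without DDX3Yoe replicate 3, 0 without DDX3Yoe replicate 1 or 2, and 1 without parental replicate 1. With all libraries, 6.45% of all genes tested were higher at that limma p. The median of the mitosis genes was 0.13 without DDX3Yoe replicate 1 and 0.95 without DDX3Yoe replicate 3. None of the 47 passed in limma, edgeR or DESeq2. The level of the list was 0.65, 0.21 and -1.16 in the DDX3Yoe libraries, against -0.70, -0.57 and -0.64 in the parental libraries. TOP2A, the topoisomerase of dividing cells, had 11094, 5336 and 1732 normalised reads in DDX3Yoe libraries, against 979, 2127 and 2149 in parental libraries (log2 fold change 1.51, limma adjusted p 0.287). PLK1, a mitotic kinase, had 971, 447 and 215 in DDX3Yoe and 210.1, 271 and 294 in parental libraries (log2 fold change 0.83, limma adjusted p 0.481). Among 48 measured replication genes the median was 0.31, and it was -0.01 and 0.16 without DDX3Yoe replicate 1 and 2, 0.63 without DDX3Yoe replicate 3 and 0.15 without parental replicate 3.

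No member of the metabolic and stress lists passed in limma, edgeR or DESeq2. At an unadjusted limma p under 0.05, 4 of 19 glycolytic enzymes were higher, beside 6.45% of all genes tested. The 4 became 1 without DDX3Yoe replicate 1. In each other list of this group at most 2 members had such a p. Medians were 0.08 for 74 nuclear oxidative phosphorylation genes, 0.13 for 13 mitochondrially encoded transcripts, 0.12 for 22 cholesterol synthesis genes, 0.19 for 19 glycolytic enzymes, 0.19 for 31 proteasome subunits, 0.02 for 21 p53 targets, -0.21 for 20 endoplasmic reticulum chaperone genes and 0.07 for 10 measured members of X-Y pairs. The 23 amino acid response genes had a median of 0.46. When each library was left out, that median lay between -0.12 (without DDX3Yoe replicate 3) and 0.79 (without DDX3Yoe replicate 1). Over the same fits the medians lay between -0.69 and 0.002 for chaperone genes (same libraries), -0.10 and 0.34 for mitochondrial transcripts (without parental replicate 3 and 1), and -0.05 and 0.28 for cholesterol genes (without parental replicate 2 and 1). They lay between -0.11 and 0.08 for p53 targets (without DDX3Yoe replicate 1 and 2), 0.06 and 0.29 for glycolytic enzymes (without DDX3Yoe replicate 1 and parental replicate 1), and -0.02 and 0.13 for X-Y pairs (without DDX3Yoe replicate 1 and 3). They lay between 0.02 and 0.18 for oxidative phosphorylation (without parental replicate 2 and 1) and 0.12 and 0.25 for the proteasome (without parental replicate 3 and 1). The level of the chaperone list was -0.58, -0.46 and 0.81 in DDX3Yoe libraries, with replicate 3 apart from the others, against 0.54, -0.03 and 0.09 in parental libraries. COX4I1, a subunit of cytochrome oxidase, had 4013, 3268 and 3822 normalised reads in DDX3Yoe libraries, against 2959, 2946 and 2903 in parental libraries (log2 fold change 0.33, limma adjusted p 0.596). ACO1, the iron-sensing aconitase, had 121, 68.4 and 152 in DDX3Yoe and 23.7, 33.4 and 41.7 in parental libraries (log2 fold change 1.72, limma adjusted p 0.105).

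**Figure D4:**
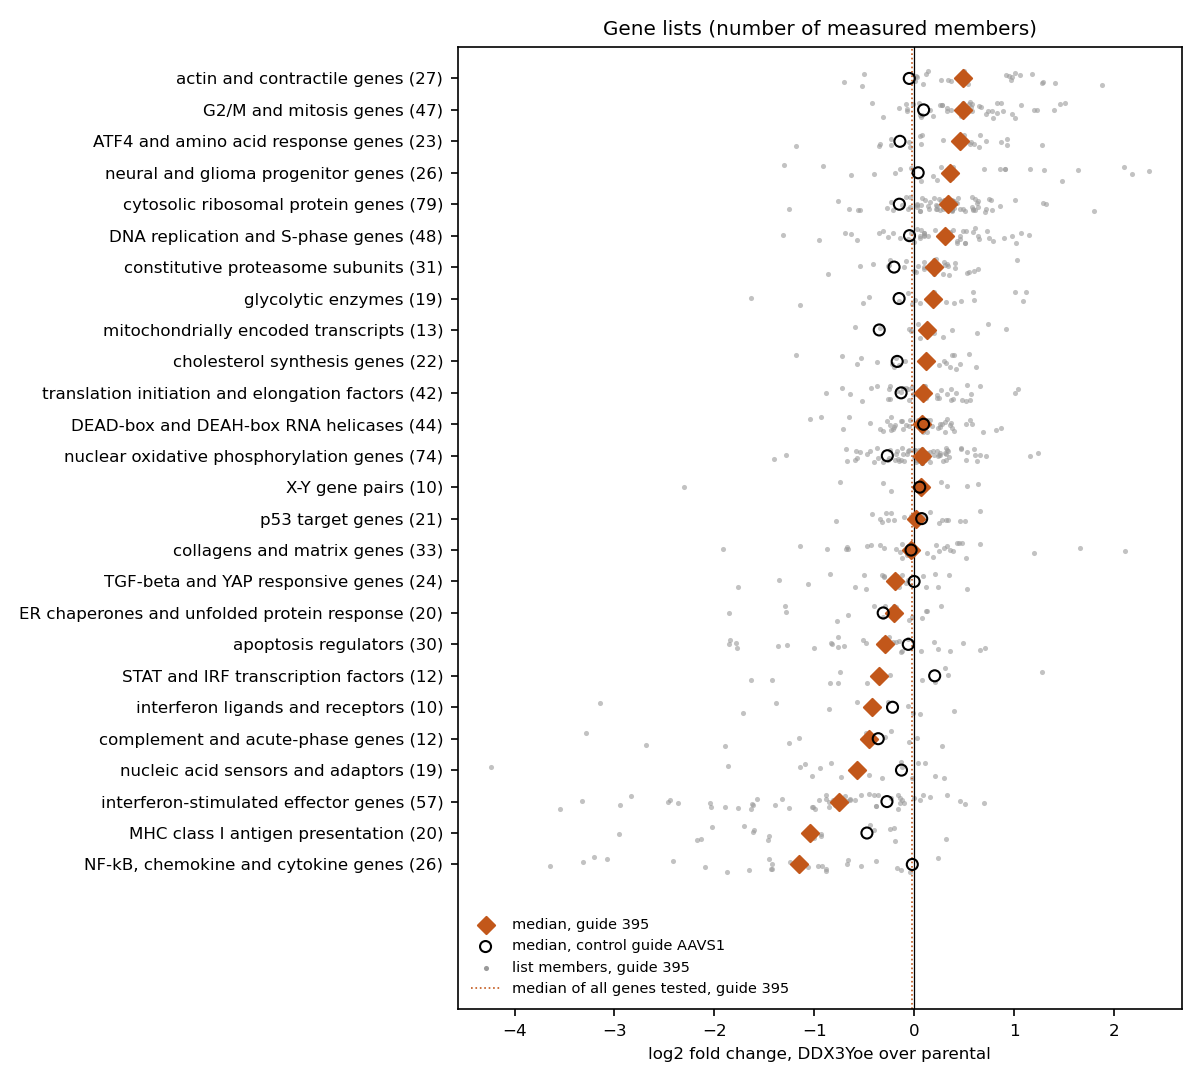
Log2 fold change of DDX3Yoe over parental cells for each measured list member with guide 395 (grey points), with the list median for guide 395 (orange diamonds) and for the control guide (open circles). The median was -1.15 for NF-kB, chemokine and cytokine genes and 0.49 for actin and contractile genes, and that of all genes tested was -0.02 (dotted line).

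With the control guide, which shares no library with the comparison above, no gene differed between DDX3Yoe and parental cells past the adjusted threshold in limma, edgeR or DESeq2 (0%), and 402 had an unadjusted p under 0.05 (2.64%). That is fewer genes than this threshold would let through with no difference, so the limma test may be strict here. A lack of calls therefore does not show that the lines were alike with the control guide. Of the 31 genes called with guide 395, 23 had the same sign with the control guide, against 61.6% of all genes tested, and 1 of them, NES, had an unadjusted p under 0.05 there. NES averaged 1072 ± 87.1 normalised reads in DDX3Yoe and 682 ± 108 in parental cells with the control guide (SD, n = 3 each, log2 fold change 0.66). The median size of the difference was 1.96 with guide 395, and 0.19 in the same direction with the control guide. The 31 genes were selected on their values with guide 395, which favours large differences there. These medians are therefore not on equal terms. HCP5 averaged 39.3 ± 11.9 in DDX3Yoe and 77.2 ± 20.7 in parental cells with the control guide (log2 fold change -0.97), PTGS2 406 ± 168 and 385 ± 108 in the same order (0.04), and COL1A1 274 ± 111 and 288 ± 64.1 (-0.12).

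The difference between the 2 line differences was tested in the same limma fit, and no gene passed (smallest adjusted p 0.343), with 737 at an unadjusted p under 0.05 (4.84%). DESeq2 called 9 genes and edgeR none. An adjusted p that misses the threshold does not show that the line difference is the same under both guides. List medians under the control guide were -0.27 for antiviral effectors, -0.47 for class I presentation, -0.02 for NF-kB and chemokine genes, -0.05 for actin and contractile genes and 0.04 for neural progenitor genes, beside -0.75, -1.04, -1.15, 0.49 and 0.36 with guide 395. For complement genes it was -0.36, beside -0.45. With the control guide 44 of 57 effectors, 18 of 20 class I genes and 10 of 12 complement genes lay below 0, beside 49, 19 and 10 with guide 395. Of NF-kB and chemokine genes 14 of 26 did, beside 25. Of all 15228 genes tested 8019 did, beside 7808.

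**Figure D5:**
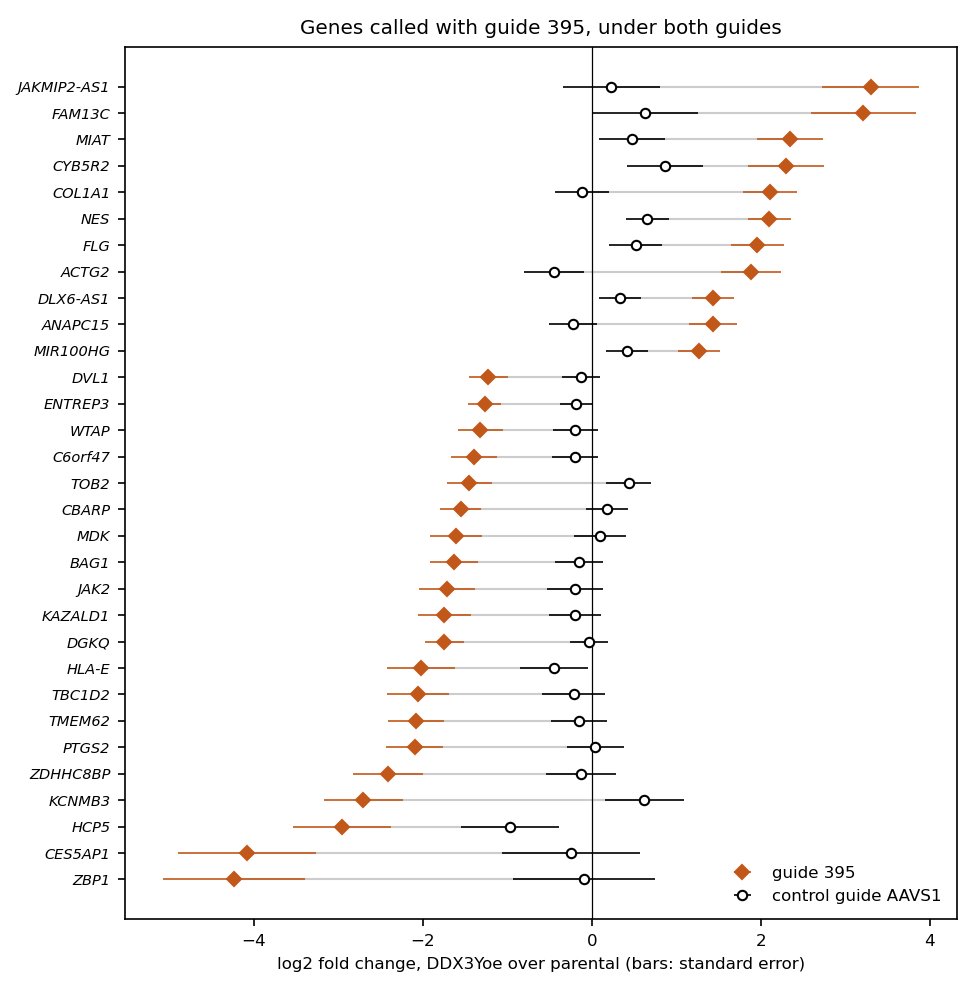
Log2 fold change of DDX3Yoe over parental cells, with standard error bars, for the 31 genes called with guide 395, under guide 395 (orange diamonds) and under the control guide (open circles). All 31 differ by at least 1 with guide 395, while with the control guide the circles lie between -0.97 for HCP5 and 0.87 for CYB5R2. The 31 were selected on guide 395, which favours large differences there.

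The following comparisons share libraries with those above and are set beside them as values. In all 31 called genes the 3 parental libraries with guide 395 lay outside the range of the 6 control-guide libraries of both lines, which held for 14.3% of genes tested. The 3 DDX3Yoe libraries with guide 395 lay outside that range in 1 of the 31, TBC1D2, and in 1.77% of genes tested. The 31 were selected on these same guide 395 libraries, so the shares over all genes are not a like background for them. Guide 395 against the control guide gave no called gene in DDX3Yoe cells in limma, edgeR or DESeq2 (0%), with 153 at an unadjusted p under 0.05 (1%). This share too is below what the threshold would let through with no difference. The lack of calls therefore does not show that the guide left DDX3Yoe cells unchanged. In parental cells the same comparison gave 271 (1.78%), and 677 when replicate number entered the fit as a block. That parental count was 67, 90 and 61 without parental replicate 1, 2 and 3 of guide 395, and 139, 60 and 366 without parental replicate 1, 2 and 3 of the control guide. DGKQ averaged 206 ± 10.5 normalised reads in DDX3Yoe cells and 697 ± 119 in parental cells with guide 395, and 180.2 ± 37.5 in DDX3Yoe and 183 ± 23.5 in parental cells with the control guide (SD, n = 3 each). BAG1 averaged 1514 ± 425 in DDX3Yoe and 4592 ± 586 in parental cells with guide 395, and 1353 ± 347 and 1534 ± 559 in the same order with the control guide.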

How the data were processed

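RNA was measured with 3′ mRNA sequencing (QuantSeq) in 18 libraries of a Cas9-expressing KNS-42 line, per the labels' protocols. The authors deposited 1 table of normalised signal values for 58050 Ensembl gene IDs, of which 57446 matched GENCODE 29, from which GRCh38 coordinates were taken. Symbols were the current ones from a separate list of gene names, or the GENCODE 29 name where that list held none. Per the submitters' processing notes, the tools were featureCounts 1.5.1, STAR 2.5.2b, limma and RSEM 1.3.0, and the build GRCh38. No source used here gives the strand setting of the counting. The deposited values are reads divided by 1 size factor per library: whole reads were recovered for 100% of values within a tolerance of 0.01.

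Groups came from the labels. Genes entered the tests if 3 or more libraries reached a value of 10. The log2 of the value plus 1 was fitted with limma 3.58.1 (R 4.3.3) with an intensity trend, 6 group means over all 18 libraries and 12 residual degrees of freedom, and p-values were adjusted over all 15228 genes by the Benjamini-Hochberg method at 0.05. On this scale the change of a low gene is understated. edgeR 4.0.16 and DESeq2 1.42.0 on the recovered reads were alternatives; the other alternatives changed the pseudocount, filter, normalisation, moderation, weights, libraries and block. The steps were checked on simulated data.

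Replicate numbers of the guide 395 groups did not pair the libraries (correlations of same-numbered deviations -0.293, 0.0105 and -0.189). Those of the parental groups did across guides (0.570, 0.201 and 0.280). In DDX3Yoe cells the same-numbered correlations across guides were 0.075, 0.114 and 0.238, each above the mismatched ones. Between the control-guide groups of both lines the same-numbered correlations were 0.213, 0.120 and 0.344. There DDX3Yoe replicate 2 correlated more with parental replicate 1 (0.149), so pairing across lines was not clear. Genes named were DDX3X and DDX3Y, the 12 with the largest fold changes in each direction among abundant called genes without overlap (filled up by smallest p), up to 4 to 6 members per list by p, and a fixed set. Overlap partners, the remaining called genes and COL1A2 were named after their values were seen. The genes and lists were chosen with earlier results of these data known. Intervals and floors cover counting error only. Some items that the naming rule covers are not reported here.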

Additional observations from a re-analysis of the deposited data

How the results depend on the processing

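The count of genes called between DDX3Yoe and parental cells with guide 395 was 31. It was 95 with a pseudocount of 5, 65 with a filter of 50, 105 with quantile normalisation, 175 with only the compared groups in the fit, 86 with only DDX3Yoe and parental libraries, 71 without both DDX3Xoe replicate 1 libraries, 786 with array quality weights, 16 with edgeR and 410 with DESeq2. A replicate block gave 263, although the numbers do not pair these libraries. Leaving out each library gave 2 to 18. For the control guide, 2 genes passed without a filter. For the difference between the line differences, 3 passed without a filter, 1 without an intensity trend and 9 with DESeq2. For guide 395 in parental cells, 271 became 159 without a filter, 77 with only the compared groups, 474 with only DDX3Yoe and parental libraries, 677 with the replicate block, 909 with DESeq2, and 60 to 366 when each library was left out. In DDX3Yoe cells 1 gene passed without a filter. The block gave no gene for the control guide, the difference of differences or DDX3Yoe cells. The log2 fold change of CLDN4 changed sign with edgeR (-0.16), with DESeq2 (-0.18), without DDX3Yoe replicate 2 (-0.0098) and without parental replicate 2 (-0.68), and that of TEK without DDX3Yoe replicate 3 (0.15); leaving out each library gave -0.68 to 1.08 for CLDN4 and -0.56 to 0.15 for TEK. The causes were not tested. The median of all genes was -0.0179 with the deposited scaling and 0.065 after median-centring. Depth limits CES5AP1, JAKMIP2-AS1, FAM13C, ZBP1 and CYB5R2, which rest on between 0 and 24 reads in 1 group.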
